A study of Homo sapiens with 3 samples.

Results

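Azurophil granule protein, lysozyme, PU.1 and C/EBP genes were followed across the libraries. These 10 genes, of 58735 in the deposited files, were chosen by name, with earlier results of these data known. They comprise 5 granule or secretory protein genes (AZU1, MPO, PRTN3, ELANE and LYZ) and 5 transcription factor genes (SPI1, CEBPA, CEBPB, CEBPD and CEBPE). The 3 RNA-seq libraries come from cells given the label KG1a, a myeloid leukaemia line whose hallmark is the CD34 antigen. The control library (labelled wild type, n = 1) was infected with lentivirus carrying a control hairpin, and the other 2 libraries (labelled TRAF7 knockdown, n = 2) with one that targets TRAF7, which encodes a RING-domain ubiquitin ligase. All 3 share cell line and batch label. The labels do not say whether the knockdown libraries carry the same hairpin or come from separate cultures. The p-values therefore measure only the spread between these knockdown libraries, largely shared across genes and possibly a technical one. The single control has no replicate of its own.

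Neutrophil precursors pack azurophil granules with serine proteases and antimicrobial proteins while they are promyelocytes. PU.1, the ETS-family factor encoded by SPI1, and the C/EBP family of basic leucine zipper factors switch on granule and lysozyme genes in the granulocyte and monocyte lineages. C/EBPα acts early in that path, and C/EBPε later, when specific granules form.

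Assigned reads numbered 16014485 to 16254461 per library. TRAF7 was at 46.5 FPKM in the control against 15.6 and 18.3 in knockdown 1 and knockdown 2. Its log2 fold change was −1.41 ± 0.19 (SE), with limma adjusted p = 0.274 and limma-voom adjusted p = 2.7e-05. FPKM values are reads scaled by exon length and by a divisor for each library, which was not its total of assigned reads. The defining antigen of the labelled line was nearly absent: CD34 had 0, 1 and 10 reads in control, knockdown 1 and knockdown 2, while the erythroid factor genes GATA1 (128.5, 104.5 and 115.6 FPKM) and KLF1 (56.5, 61.7 and 55.8 FPKM) were abundant. HOXA9 and FLT3, often expressed in immature myeloid leukaemia, had 0 reads in all 3 libraries, and the leukocyte antigen gene PTPRC was at 9.54, 5.60 and 6.53 FPKM. The libraries are therefore called by their labels only. The control had more reads on the 894 sense intronic genes, at 8860 against 7275 and 7729; the part of this difference in the results below was not tested.

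Of the 10 genes, 6 averaged at least 1 FPKM over the libraries and were tested (AZU1, PRTN3, LYZ, SPI1, CEBPB and CEBPD), and each of these was lower in both knockdown libraries than in the control. Among all genes tested, 30.8% were lower in both and 42.5% higher in both, and among those with a mean of 1 to 10 FPKM, where 5 of the 6 lie, 38.5% were lower in both. AZU1 alone of the 6 was at least 2-fold lower in both libraries, as were 1.11% of all genes tested. On the log2(FPKM + 1) scale, tested with limma, 0 of the 6 passed an adjusted p of 0.05 over the 12640 genes tested, as did 0% of all genes; 1 of the 6 had an unadjusted p under 0.05, against 9.19% of all genes. By limma-voom on the reads recovered from the FPKM values, 1 of 7 passed, AZU1, where 0.659% of genes passed as lower. The median fitted log2 fold change of the 6 was −0.41, beside 0.04 over all genes tested. In these bulk libraries, fewer cells of a type and less RNA per cell cannot be told apart.

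**Figure D1:**
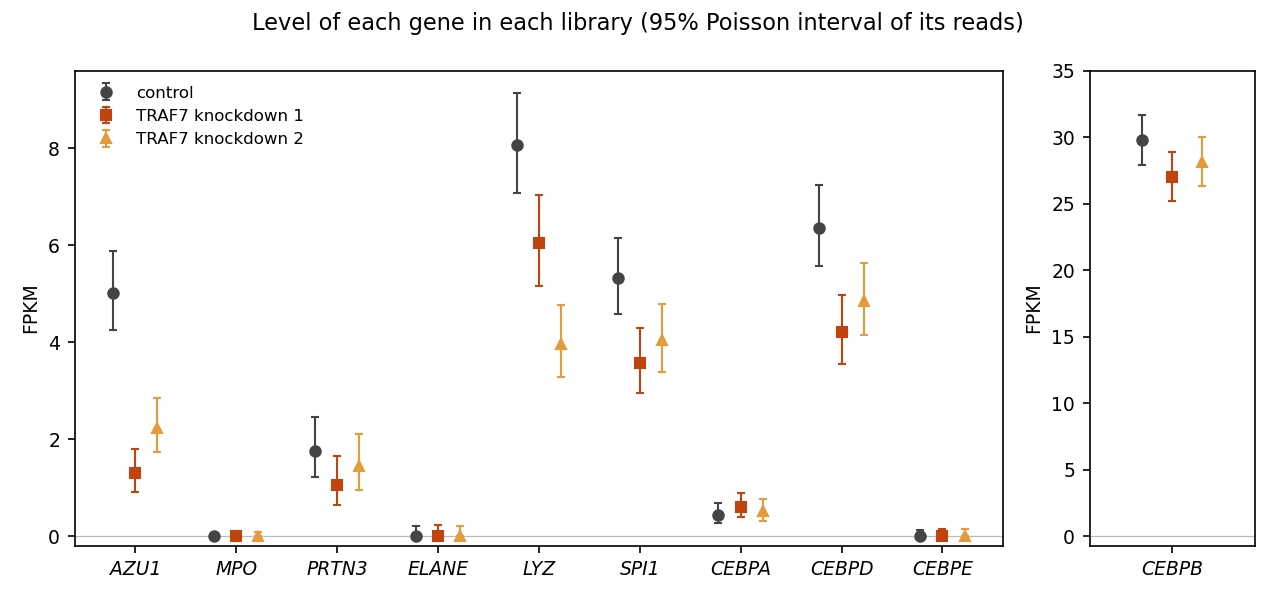
FPKM of each gene (vertical axes, linear) in the control and the 2 TRAF7 knockdown libraries; bars are 95% Poisson intervals of the recovered reads, and CEBPB has its own axis. The control point lies above both knockdown points for AZU1, PRTN3, LYZ, SPI1, CEBPD and CEBPB, and MPO, ELANE and CEBPE lie at or next to 0.

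Among the granule genes, AZU1 was the one furthest from the control. It encodes azurocidin, an antimicrobial relative of the neutrophil serine proteases that has lost protease activity, and lies on chromosome 19 (825097 to 832018, plus strand, GRCh38, GENCODE release 29; ENSG00000172232). AZU1 held 151 reads in the control (5.02 FPKM, 95% interval 4.25 to 5.88), 36 in knockdown 1 (1.30 FPKM, 0.909 to 1.80) and 65 in knockdown 2 (2.24 FPKM, 1.73 to 2.86). The control was above both knockdown libraries with no overlap of the counting intervals. The level was 25.9% of the control in knockdown 1 (exact 95% interval 17.5 to 37.4) and 44.7% in knockdown 2 (32.9 to 60.2), and knockdown 2 was at 173% of knockdown 1 (113 to 267). These intervals cover counting error only. The fitted log2 fold change was −1.14 ± 0.27 (SE; limma adjusted p = 0.403), on a scale that understates changes of low genes. Limma-voom gave −1.54 ± 0.39 (adjusted p = 0.0391), the only call among the 10 genes by either tool.

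PRTN3 encodes proteinase 3, an active elastase-like serine protease of the same granules, and begins 8.94 kb after the end of AZU1 (chromosome 19, 840960 to 848175, plus strand). It held 34 reads in the control (1.76 FPKM, 95% interval 1.22 to 2.46), 19 in knockdown 1 (1.07 FPKM, 0.641 to 1.66) and 27 in knockdown 2 (1.45 FPKM, 0.955 to 2.11). The point values were in the same order as those of AZU1, but all 3 counting intervals overlapped. The ratios to the control were 60.6% (32.7 to 109) and 82.5% (47.8 to 141), so a difference was not detectable at this depth. The fitted log2 fold change was −0.29 ± 0.26 (SE; limma adjusted p = 0.750). Whether AZU1 differed more than PRTN3 was not tested.

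ELANE, the gene of neutrophil elastase, follows PRTN3 after 2.84 kb (851014 to 856247, plus strand) and had 0 reads in every library. A count of 0 allows up to 3 reads, or 0.173, 0.188 and 0.179 FPKM in control, knockdown 1 and knockdown 2. MPO encodes myeloperoxidase, the haem enzyme that makes hypochlorous acid in the granule, and lies on chromosome 17 (58269856 to 58280935, minus strand). It had 0, 0 and 1 reads, where 3 reads would be 0.0504, 0.0547 and 0.0523 FPKM. ELANE and MPO were thus at or under the floor in all 3 libraries, and no fold is given for them. Within the protease cluster, AZU1 and PRTN3 were read in the same libraries in which the third gene was not.

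The windows before the starts of AZU1 and PRTN3 are shown because these neighbouring genes were both detected and stood in the same order across the libraries. The sequences are from the RefSeq promoter table (GRCh38.p14), which held 5 of the 10 genes. Capitals mark matches to TTGNNCAA, the C/EBP half-site palindrome with a free centre, and to GAGGAA, the purine-rich core bound by PU.1; both strands were searched.
AZU1, chr19:827587-827835, plus strand: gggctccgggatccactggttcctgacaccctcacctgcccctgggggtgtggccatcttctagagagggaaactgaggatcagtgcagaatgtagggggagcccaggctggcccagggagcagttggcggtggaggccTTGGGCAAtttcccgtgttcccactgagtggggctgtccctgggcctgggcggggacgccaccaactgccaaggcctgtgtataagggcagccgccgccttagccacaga
PRTN3, chr19:840749-840959, plus strand: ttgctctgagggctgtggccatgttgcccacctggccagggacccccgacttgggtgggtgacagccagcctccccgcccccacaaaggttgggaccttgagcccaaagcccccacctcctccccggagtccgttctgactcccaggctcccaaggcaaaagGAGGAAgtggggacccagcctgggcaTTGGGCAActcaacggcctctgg

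Both windows hold the same 8 letters, TTGGGCAA, and that of PRTN3 also holds GAGGAA. The first of these matches begins 111 bases before the RefSeq start of AZU1 and 62 bases before that of PRTN3; GAGGAA begins 88 bases before the start of PRTN3. Over all 35116 windows of 250 bases before a RefSeq start, 4.90% held TTGNNCAA, 23.6% held GAGGAA and 1.17% held both. The windows of CEBPA and CEBPB, with 2 starts for CEBPB, held neither, and that of CEBPE held GAGGAA once. TGTGGT, a RUNX core, was in 0 of these 6 windows and in 11.0% of all. The motifs were chosen after the windows had been read, and a match does not show binding. The AZU1 window also lies in an intron of a longer GENCODE transcript that starts upstream, and the PRTN3 run stops where the first GENCODE exon begins.

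The genes around the cluster did not share one direction. Within 100 kb of it, 15 other genes are annotated, of which 9 averaged at least 1 FPKM; 5 of these were lower in both knockdown libraries and 3 higher. CFD, which encodes the serine protease complement factor D and adjoins ELANE, had FPKM values of 28.2, 34.3 and 32.5, here and below in the order control, knockdown 1, knockdown 2. Splicing regulator gene PTBP1 was at 113.3, 156.5 and 123.2 FPKM and Mediator subunit gene MED16 at 24.3, 29.7 and 26.1. On the lower side stood PALM (4.74, 2.76 and 3.38 FPKM), PLPPR3 (15.8, 15.2 and 15.2), R3HDM4 (81.5, 64.3 and 66.2), ARID3A (41.9, 36.8 and 36.97) and the antisense gene AC005379.1 (1.99, 1.18 and 0.562, from 11, 6 and 3 reads). KISS1R was on both sides of the control, at 13.0, 20.3 and 7.54 FPKM. Of these 9, 0 passed by limma, and 0 of the 8 that had enough reads for limma-voom.

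**Figure D2:**
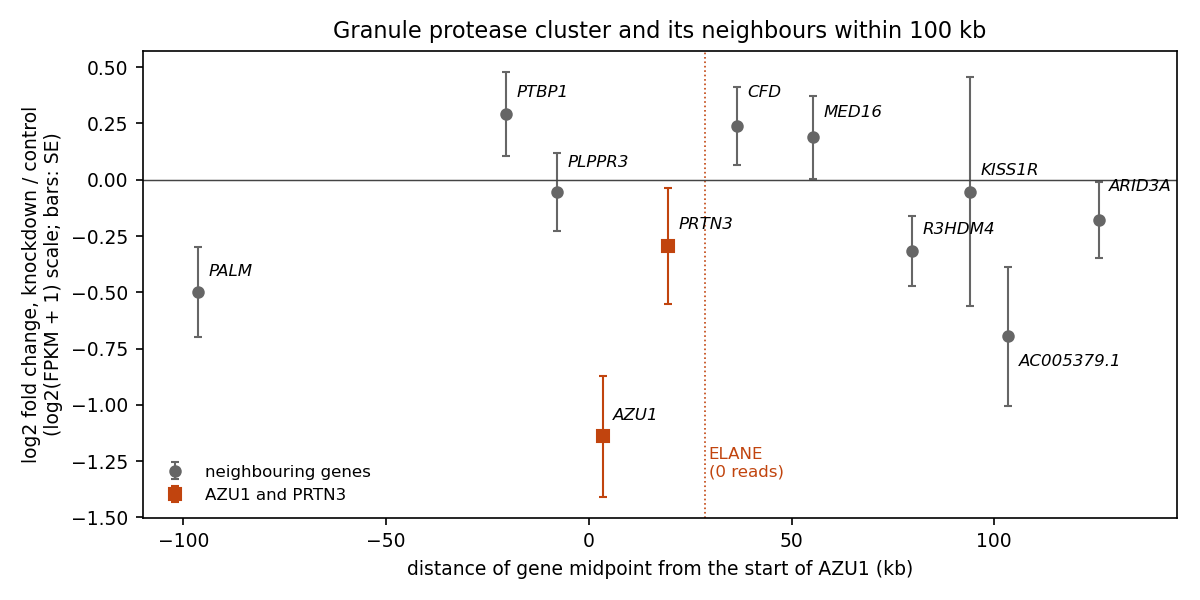
Fitted log2 fold change (vertical axis, log2(FPKM + 1) scale, bars are SE) of each measured gene against the distance in kb of its midpoint from the start of AZU1 (horizontal axis). AZU1 stands at −1.14 and PRTN3 at −0.29, and the 9 neighbours lie on both sides of 0; the dotted line is ELANE, with 0 reads.

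LYZ encodes lysozyme, the bacterial cell wall hydrolase of granulocytes, monocytes and secretions, and lies on chromosome 12 (69348341 to 69354234, plus strand). It held 240 reads in the control (8.06 FPKM, 95% interval 7.07 to 9.14), 166 in knockdown 1 (6.05 FPKM, 5.16 to 7.04) and 114 in knockdown 2 (3.97 FPKM, 3.28 to 4.77). Here knockdown 2 was the lowest library, the reverse of AZU1. The level was 75.0% of the control in knockdown 1 (61.2 to 91.8) and 49.3% in knockdown 2 (39.1 to 61.9), and knockdown 2 was at 65.7% of knockdown 1 (51.3 to 83.9). The fitted log2 fold change was −0.61 ± 0.25 (SE; limma adjusted p = 0.543), and limma-voom gave −0.72 ± 0.30 (adjusted p = 0.304). LYZ is the least unique of the expressed granule genes: 35.8% of its 50-base stretches also occur in transcripts of other genes on either strand. The antisense gene AC020656.1, which had 0 reads in each library, covers 34.0% of its exon bases. Stretches under that antisense gene count in the 35.8%, so these shares are not separate limits.

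Azurocidin and proteinase 3 reads are not easily confused, since the longest identical run between their transcripts was 15 bases; it was 12 between AZU1 and ELANE and 25 between PRTN3 and ELANE. Of the 50-base stretches of AZU1, 5.90% recur in other genes, and 0% of those of PRTN3, ELANE, MPO and SPI1.

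SPI1, the PU.1 gene, lies on chromosome 11 (47354860 to 47378576, minus strand). It held 186 reads in the control (5.32 FPKM, 95% interval 4.59 to 6.15), 115 in knockdown 1 (3.57 FPKM, 2.95 to 4.29) and 136 in knockdown 2 (4.04 FPKM, 3.39 to 4.78). The knockdown libraries were close to each other and both below the control. The ratios were 67.1% (52.7 to 85.1) and 75.9% (60.4 to 95.2) of the control. The fitted log2 fold change was −0.40 ± 0.18 (SE; limma adjusted p = 0.574).

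CEBPD encodes C/EBPδ, a family member induced by cytokines and in granulocytic differentiation, on chromosome 8 (47736909 to 47739086, minus strand). It held 234 reads in the control (6.36 FPKM, 95% interval 5.57 to 7.23), 143 in knockdown 1 (4.22 FPKM, 3.56 to 4.97) and 172 in knockdown 2 (4.86 FPKM, 4.16 to 5.64). The ratios to the control, 66.3% (53.5 to 82.0) and 76.3% (62.3 to 93.3), were close to those of SPI1. The fitted log2 fold change was −0.41 ± 0.18 (SE; limma adjusted p = 0.560).

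CEBPB encodes C/EBPβ, which acts in emergency granulopoiesis and in macrophages, and was the most abundant of the 10 genes. It lies on chromosome 20 (50190734 to 50192689, plus strand) and held 983 reads in the control (29.8 FPKM, 95% interval 27.9 to 31.7), 822 in knockdown 1 (27.0 FPKM, 25.2 to 28.9) and 894 in knockdown 2 (28.1 FPKM, 26.3 to 30.01). All 3 intervals overlapped. The ratios were 90.7% (82.6 to 99.6) and 94.4% (86.2 to 103), and the fitted log2 fold change was −0.11 ± 0.17 (SE; limma adjusted p = 0.877). The antisense gene CEBPB-AS1, which covers 11.8% of its exon bases, had 28, 25 and 37 reads.

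CEBPA, the gene of C/EBPα, was close to the lower limit of measurement, and CEBPE was not read. CEBPA (chromosome 19, 33299934 to 33302564, minus strand) held 20 reads in the control (0.450 FPKM, 95% interval 0.275 to 0.695), 25 in knockdown 1 (0.611 FPKM, 0.395 to 0.901) and 22 in knockdown 2 (0.514 FPKM, 0.322 to 0.779). Unlike the 6 genes above, its point values were higher in both knockdown libraries, but the ratios of 136% (72.3 to 257) and 114% (59.5 to 221) have intervals that include no difference. Of its 50-base stretches, 37.1% occur in transcripts of other genes on either strand. The 2 antisense genes AC008738.3 and AC008738.5, with 0 reads, cover 25.05% and 18.3% of its exon bases. Stretches under them count in the 37.1%, so these shares are not separate limits. CEBPA was below the filter for the main test, and limma-voom gave 0.31 ± 0.64 (adjusted p = 0.913). CEBPE (chromosome 14, 23117304 to 23119616, minus strand) had 0 reads in all 3 libraries, with 95% intervals that reach 0.141, 0.153 and 0.146 FPKM.

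**Figure D3:**
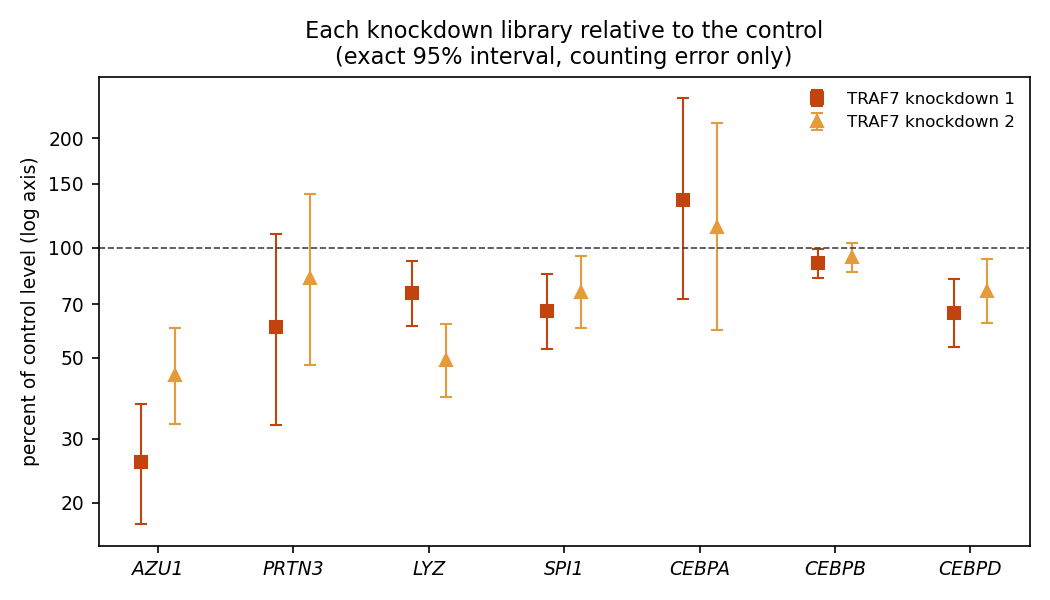
Level in each knockdown library as a percentage of the control (vertical axis, log scale) for the 7 genes with reads in the control; bars are exact 95% intervals of the read ratio, and the dashed line is the control. Both intervals lie below the line for AZU1, LYZ, SPI1 and CEBPD, and only that of knockdown 1 for CEBPB.

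By counting error alone, 4 of the 6 tested genes (AZU1, LYZ, SPI1 and CEBPD) had ratio intervals below the control in both knockdown libraries, where 11.7% of all genes tested did. Between the knockdown libraries, only AZU1 and LYZ of the 6 had a ratio interval that excluded 100%, and they went in opposite directions. The share of all genes tested with such an interval was not counted, so whether this is unusual cannot be said.

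The order of levels per exon length in the control was CEBPB, LYZ, CEBPD, SPI1, AZU1, PRTN3 and CEBPA. LYZ and CEBPD, CEBPD and SPI1, and SPI1 and AZU1 were neighbours whose counting intervals overlapped, while CEBPB stood above LYZ, AZU1 above PRTN3 and PRTN3 above CEBPA. In knockdown 1, AZU1 came below SPI1 with no overlap and overlapped PRTN3. In knockdown 2, LYZ came below CEBPD and SPI1, overlapping both, and AZU1 again overlapped PRTN3. Against all protein-coding genes of the same library, the level of AZU1 was above 67.9%, 53.0% and 57.1% of them in control, knockdown 1 and knockdown 2. That of CEBPB was above 93.2%, 91.0% and 92.0%.

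**Figure D4:**
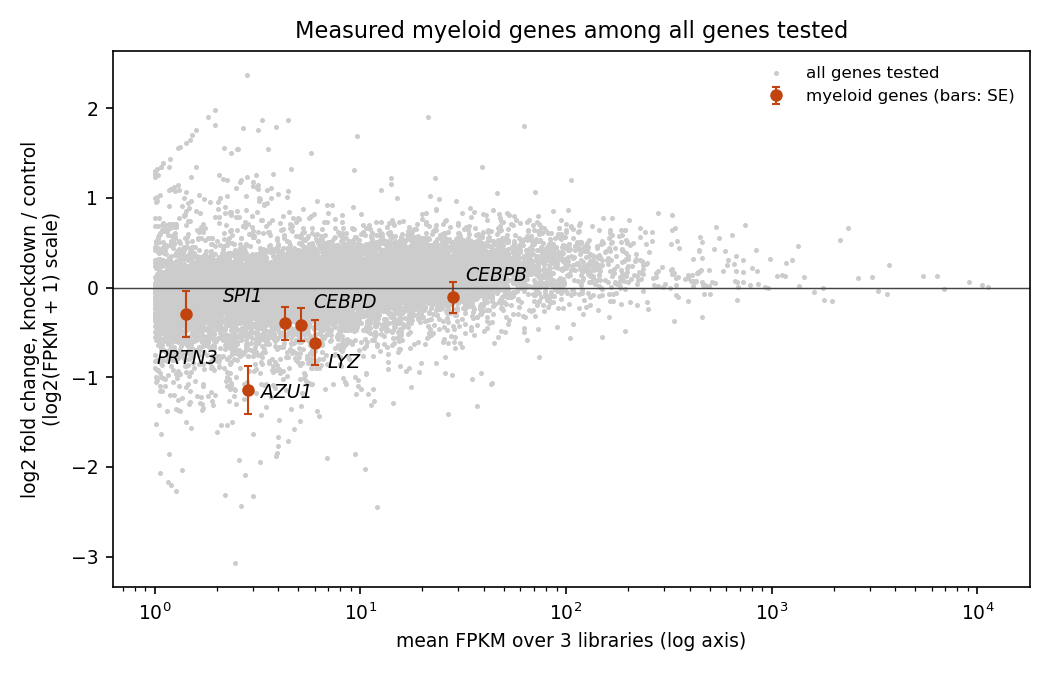
Fitted log2 fold change (vertical axis, log2(FPKM + 1) scale) against mean FPKM (horizontal axis, log scale) for the 12640 genes tested, with the 6 granule and regulator genes in red (bars are SE). AZU1, at −1.14, lies below most genes of its level, and CEBPB, at −0.11, within the bulk.

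The other measured granule and lysosomal genes stood on both sides of the control. Of 18 further azurophil granule, granule-processing and lysosomal genes, 10 were measured, 3 were lower in both knockdown libraries and 5 higher, and the median log2 fold change was 0.01; 0 passed by limma or limma-voom. The 6 genes with 0 reads in every library included CTSG, the cathepsin G gene, and BPI, which encodes a protein that kills Gram-negative bacteria. Below the filter were PRSS57, a granule serine protease gene (19, 6 and 20 reads), and SRGN, the gene of the granule proteoglycan serglycin (26, 12 and 16 reads, lower in both knockdown libraries). SERPINB1, an inhibitor of the granule proteases, was at 49.9, 33.2 and 43.2 FPKM, and GAA, the lysosomal glucosidase, at 16.8, 12.4 and 14.7. CTSD, which encodes lysosomal cathepsin D, was at 11.2, 13.9 and 14.8 FPKM. Of 12 specific and gelatinase granule genes, 0 were measured. Of 10 eosinophil and mast cell genes 1 was measured, GATA1, and 5 had 0 reads.

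The NADPH oxidase list had 3 of 6 genes measured, in both directions. CYBA, the p22 subunit, was at 71.6, 102.3 and 94.4 FPKM (log2 fold change 0.45 ± 0.16, SE; limma adjusted p = 0.497), and RAC2, the GTPase of the complex, at 49.7, 35.04 and 35.5 FPKM (−0.48 ± 0.17; adjusted p = 0.495). CYBB, the catalytic subunit, was at 1.73, 1.45 and 1.56 FPKM. In this list 0 passed by either tool.

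Of 22 myeloid surface receptors and antigens, 3 were measured, with 1 lower in both knockdown libraries and 0 higher. That gene was FCGR2A, an activating receptor for immunoglobulin G, at 8.39, 2.31 and 3.11 FPKM (753, 191 and 269 reads). Its log2 fold change was −1.35 ± 0.21 (SE; limma adjusted p = 0.346), and it fell by limma-voom (−1.64, adjusted p = 6.6e-05). In this list 1 of the 8 genes tested by limma-voom passed as lower, where 0.659% of all genes did. FCGR2A has near-identical paralogs, so the split of reads among them is uncertain. The sialic acid-binding antigen gene CD33 was at 5.37, 2.66 and 5.48 FPKM, low in knockdown 1 only, and FUT4 at 3.86, 4.34 and 3.60. Below the filter, CSF3R, the receptor gene for granulocyte colony-stimulating factor, had 19, 4 and 11 reads. Of the others with enough reads for limma-voom, ANPEP had 40, 15 and 22, ITGAM 23, 5 and 11, and ITGAX 22, 9 and 16. IL6R, also among them, had 35, 11 and 44 reads, low in knockdown 1 only.

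Of 23 other regulators of myeloid cells, 17 were measured; 6 were lower in both knockdown libraries and 7 higher, with a median log2 fold change of 0.02. By limma 0 passed, and by limma-voom 1 rose, as did 0.206% of all genes tested. That was ID1, an inhibitor of basic helix-loop-helix factors, at 12.4, 31.1 and 22.2 FPKM (log2 fold change 1.02 ± 0.24, SE; limma adjusted p = 0.403; limma-voom adjusted p = 0.0342). Its relative ID2 was at 3.52, 7.20 and 6.25 FPKM, the vitamin D receptor gene VDR at 1.76, 0.645 and 1.07, and STAT3, which signals for cytokine receptors, at 23.0, 28.9 and 26.6. Of 5 genes listed beside PU.1 and the C/EBP factors by family or by symbol, 3 were measured. CEBPG, a family member without an activation domain, was at 27.1, 19.3 and 27.1 FPKM, low in knockdown 1 only. CEBPZ, listed for its symbol and not a member of the basic leucine zipper family, was at 18.5, 21.8 and 18.1. DDIT3, the stress-induced C/EBP homologue, was at 23.6, 27.9 and 27.4.

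Among markers of other lineages, erythroid genes passed by limma-voom. Of 12 erythroid genes, 9 were measured, and the summed level of the list was 211.2 FPKM in the control and 395.0 and 343.1 in knockdown 1 and 2; 5 were higher in both and 1 lower. By limma 0 passed, and by limma-voom 4 rose, where 0.206% of all genes tested passed as higher. These were the globin genes HBA1 (22.9, 90.2 and 74.8 FPKM), HBA2 (18.5, 56.2 and 41.9) and HBG1 (26.4, 58.9 and 53.3) and the transferrin receptor gene TFRC (49.5, 95.7 and 72.0). Lower in both knockdown libraries were ALAS2, of erythroid haem synthesis, at 11.2, 6.99 and 9.13 FPKM, and, below the filter, the band 3 gene SLC4A1, with 91, 18 and 47 reads; neither passed (limma-voom adjusted p = 0.441 and 0.117). The globin copies are near-identical, so reads may be split between them. The summed level of 12 immature blood cell markers was 63.7, 59.1 and 47.2 FPKM. Most of this sum was the leukocyte gene SPN, at 46.2, 45.3 and 32.9 FPKM. Of the 12, 3 were measured (PTPRC, SPN and MSI2) and 3 were lower in both. KIT, the stem cell factor receptor gene of that list, was below the filter and stood the other way, at 0.447, 1.05 and 1.43 FPKM (42, 91 and 129 reads; limma-voom log2 fold change 1.45, adjusted p = 0.134), as did the few reads of CD34. Of 12 lymphoid markers 2 were measured, CD3D (6.63, 4.36 and 5.69 FPKM) and NKG7 (2.22, 0.618 and 1.64). Of 11 stromal and epithelial markers 3 were measured, EPCAM, KRT8 and KRT18, with a summed level of the list of 131.8, 162.4 and 144.9 FPKM. The part of these lineage genes in the granule and regulator results was not tested.

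**Figure D5:**
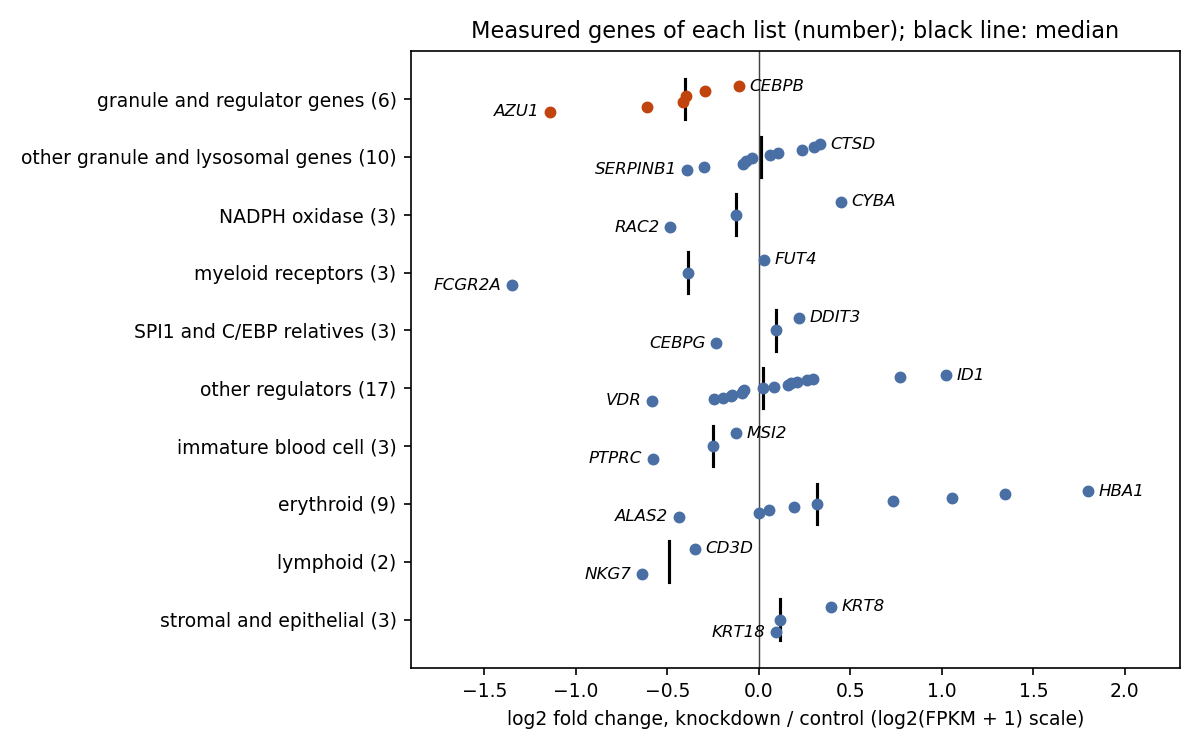
Fitted log2 fold change (horizontal axis, log2(FPKM + 1) scale) of every measured gene of each list with several measured genes; points are genes, black lines medians, and the number of genes stands in brackets. The 6 granule and regulator genes lie between −1.14 (AZU1) and −0.11 (CEBPB), while the other granule and lysosomal genes lie on both sides of 0. The row of SPI1 and C/EBP relatives includes CEBPZ, listed for its symbol only.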

How the data were processed

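The authors deposited FPKM values for 58735 Ensembl genes per library, per the file headers. BWA, Bowtie and hg19 appear in the submitters' processing notes, without roles or versions; the counting tool and the strandedness are not given in the sources used here. All identifiers matched GENCODE release 29 (GRCh38), which gave symbols, positions and exon lengths. FPKM multiplied by exon length gave whole multiples of a fixed step in each library (100% of the values above 0, tolerance 0.05), so reads were recovered. Total reads of 16014485 to 16254461 set the precision. The divisor behind the FPKM values was 1.04, 0.963 and 1.01 times the geometric mean of these totals in control, knockdown 1 and knockdown 2. Ratios between libraries depend on this scaling.

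Genes averaging 1 FPKM or more were tested on log2(FPKM + 1) by limma 3.58.1 (R 4.3.3), its variance prior following intensity, with Benjamini-Hochberg adjustment over all genes tested at 0.05 and 1 residual degree of freedom, from the knockdown pair; the lone control is assumed to vary like them. Limma-voom used recovered reads (mean of at least 10). The variance prior, shared across genes, carried 4.74 degrees of freedom in the main limma test and 35.5 in limma-voom. Against 1 residual degree of freedom, the p-values rest mainly on that prior. Alternatives changed scaling, filter, pseudocount, trend and libraries. Intervals are exact (95%, Poisson or conditional binomial, scipy 1.17.1). The 10 genes and the 11 lists were chosen with earlier results of these data known. From each list the text names up to 4 measured genes with the lowest p and any past the threshold by either tool. It also names every measured neighbour of the protease cluster. CSF3R, ANPEP, ITGAM, ITGAX, IL6R, CTSG, BPI, PRSS57, SRGN, KIT, ALAS2, SLC4A1, CD34, HOXA9, FLT3 and KLF1 were named after values were seen. The motifs and the band of 1 to 10 FPKM were also set after values were seen. No protein sequence was used here.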

Additional observations from a re-analysis of the deposited data

How the results depend on the processing

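The number of genes called by limma was 0 in the main test (1161 at an unadjusted p under 0.05) and stayed at 0 without the filter (of 28284 genes), without the trend, with pseudocounts of 0.1, 0.5 and 5, and after quantile or median-of-ratios scaling. It was 3 with a mean of at least 5 FPKM (3 higher, 0 lower) and 13 among protein-coding genes (6 higher, 7 lower), and limma-voom called 130 (31 higher, 99 lower). The number of the 6 tested genes lower in both knockdown libraries was 6 in every setting that tested all of them. It was 3 of 3 with a mean of at least 5 FPKM, where AZU1, PRTN3 and SPI1 are not tested. Filter, pseudocount, trend and gene type cannot change the sign of a difference. Limma-voom took the FPKM divisors as library sizes, so apart from a small added offset its signs are those of the FPKM ratios. Only quantile or median-of-ratios scaling could thus have moved this number. Each knockdown library alone gave 6, which follows from being lower in both. The fitted value of AZU1 ranged from −1.54 (limma-voom) to −0.57 (pseudocount 5), with adjusted p from 0.0391 to 0.649, and the call by limma-voom was the only one. Its value was −1.39 without knockdown 2 and −0.89 without knockdown 1. LYZ ranged from −0.72 to −0.39, CEBPD from −0.49 to −0.25, SPI1 from −0.48 to −0.23, PRTN3 from −0.49 to −0.11 and CEBPB from −0.27 (quantile normalization) to −0.10, all below 0. Without knockdown 1, LYZ stood at −0.86, and without knockdown 2 at −0.36. The median over all genes tested moved from 0.04 to 0.11 with a mean of at least 5 FPKM. Leaving out the control is not possible, and each knockdown library alone leaves no residual degree of freedom, so those are values with no test. No paired analysis was possible because there is 1 control library and its label carries no number. Depth limits PRTN3 and CEBPA, with 19 to 34 reads per library, and MPO, ELANE and CEBPE, with 0 or 1.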

Other observations

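The following genes of the lists were chosen after their values were seen and are given as values only. CRISP3, a gene of the specific granule list below the filter, had 9, 56 and 20 reads (control, knockdown 1, knockdown 2) (limma-voom adjusted p = 0.318). EGR1, an immediate early factor that also acts in monocyte differentiation, was at 75.1, 186.9 and 45.5 FPKM, above the control in knockdown 1 and below it in knockdown 2. The repressor gene GFI1 had 40, 20 and 39 reads, low in knockdown 1 only.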
